A study of Mus musculus with 16 samples.

Results

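The 40 genes described here load amino acids onto transfer RNA or make and import those amino acids. They were chosen by symbol from the table of unique molecular identifier (UMI) counts, which holds 24019 genes in 16 libraries, and all 40 symbols were found. The choice was made with earlier results of these data known. A share of members called above that of all genes is therefore no independent evidence of an excess. The set holds 20 rows for cytosolic aminoacyl-tRNA synthetases, 6 enzymes of serine, one-carbon and asparagine synthesis, 2 enzymes of transsulfuration, 8 amino acid transporters and 4 enzymes that transaminate glutamate or make proline from it. Of these, 39 had enough counts to be tested. The exception was Slc43a1, which carries large neutral amino acids, with 1 UMI in all 4 Adam17ex cerulein libraries together, 1 in Adam17ex PBS and 0 in either WT group.

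RNA came from pancreas of 16 mice aged 6 to 8 weeks, 4 in each of 4 groups. The Adam17ex cerulein and Adam17ex PBS groups were Adam17ex/ex mice, which carry a hypomorphic allele of Adam17, the gene of a membrane protease that sheds surface proteins. The WT cerulein and WT PBS groups were wild-type littermates, and the WT strain was C57BL/6J. Cerulein, an analogue of the hormone cholecystokinin that overstimulates acinar cells and causes pancreatitis, was injected at 50 µg per kg 7 times at intervals of 1 h, and PBS was injected on the same schedule. Tissue was taken 1 h after the last injection. The labels give 2 males in each Adam17ex group, 1 in WT cerulein and 0 in WT PBS.

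Libraries held 455547 to 1476159 UMIs. Replicates 1 to 3 of Adam17ex PBS were the shallowest, at 455547 to 492878 UMIs, and a ribosomal RNA gene took 7.84% to 9.02% of their UMIs, against 2.02% to 5.04% in the other 13 libraries. Calls of members that were lost without these 3 libraries are named as such. Leaving them out left 1 Adam17ex PBS library, and fewer of all genes then passed in every comparison with that group. All 7 acinar cell markers were detected in every group, and the 28 digestive enzyme genes took 34.8% to 37.8% of UMIs in Adam17ex cerulein, 29.4% to 39.0% in Adam17ex PBS, 27.9% to 33.7% in WT cerulein and 36.5% to 39.0% in WT PBS libraries. Adam17 itself had 2 to 6 UMIs per library in Adam17ex cerulein and 1 to 5 in Adam17ex PBS, against 10 to 27 in WT cerulein and 5 to 16 in WT PBS. It was lower in Adam17ex under cerulein (log2 fold change -2.05 ± 0.40, edgeR adjusted p = 0.00138) and did not pass under PBS (-1.21 ± 0.49, adjusted p = 0.210). Counts come from the 3′ end of transcripts and need not cover the altered part of the allele.

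An acinar cell makes more protein for its weight than almost any other cell, and each residue has to be loaded onto its tRNA by the matching synthetase. When amino acids run short, or when proteins misfold in the endoplasmic reticulum, kinases phosphorylate the initiation factor eIF2α, most translation slows and the transcription factor ATF4 is made. ATF4 binds with C/EBP proteins to an element read as TGATGNAA and is known in mammalian cells to raise genes of synthetases, of serine and asparagine synthesis and of amino acid uptake.

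To show where this element lies in the members, the RefSeq promoter windows on GRCm38.p6 were searched for TGATGNAA on both strands, its reverse being TTNCATCA. Each window covers 250 bases before to 50 bases after a gene's start. Of the 40 members 31 had a window, and 9 of these 31 held the element: Aars, Gars, Iars, Tars and Yars among the synthetases, Asns, the transporter Slc1a4, and Got1 and Pycr1. Over all 27025 genes with a window, 4.51% held it. Cars, Hars, Lars, Nars, Rars, Vars, Wars, Cth and Slc7a5 had no window. The matches of the other 8 genes than Aars are given below in 30 bases around each, from 5′ to 3′ along the gene's strand, with the element in capitals. A match in these letters is no evidence of binding.
Gars, chr6:55037960-55037989, plus strand: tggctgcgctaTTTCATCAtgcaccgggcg
Iars, chr13:49682126-49682155, plus strand: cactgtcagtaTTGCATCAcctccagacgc
Tars, chr15:11399655-11399684, minus strand: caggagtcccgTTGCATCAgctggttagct
Yars, chr4:129189895-129189924, plus strand: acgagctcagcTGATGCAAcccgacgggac
Asns, chr6:7693214-7693243, minus strand: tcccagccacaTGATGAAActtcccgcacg
Slc1a4, chr11:20332699-20332728, minus strand: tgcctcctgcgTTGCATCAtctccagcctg
Got1, chr19:43524689-43524718, minus strand: cattgcattggTTGCATCAtacaagcctcc
Pycr1, chr11:120643833-120643862, minus strand: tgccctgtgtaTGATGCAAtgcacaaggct
The element began 23 bases before the start of Asns and 30 bases before that of Gars. The 250 bases before these starts are shown whole, since Gars is among the synthetases with the largest change and Asns is the enzyme for which this element is best known.
Asns, chr6:7693210-7693459, minus strand: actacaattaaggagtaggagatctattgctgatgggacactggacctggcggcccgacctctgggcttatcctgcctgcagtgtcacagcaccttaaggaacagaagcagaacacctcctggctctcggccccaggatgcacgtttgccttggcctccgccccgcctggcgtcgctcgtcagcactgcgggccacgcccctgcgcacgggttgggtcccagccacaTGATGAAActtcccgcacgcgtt
Gars, chr6:55037751-55038000, plus strand: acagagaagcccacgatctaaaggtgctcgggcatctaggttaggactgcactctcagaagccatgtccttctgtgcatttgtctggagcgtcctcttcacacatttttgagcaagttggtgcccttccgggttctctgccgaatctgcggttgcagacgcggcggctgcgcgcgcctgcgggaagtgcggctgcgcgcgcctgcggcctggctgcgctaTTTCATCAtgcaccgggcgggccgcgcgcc

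In Adam17ex pancreas most of the members that passed the test after cerulein rose. In WT pancreas the share that passed was close to that of all genes with the main filter on counts. Which direction was the more frequent in WT mice depended on how libraries were scaled. Levels below are in CPM, a gene's UMIs relative to the library's total after TMM scaling, and changes are log2 fold changes ± SE from edgeR's quasi-likelihood test, called at a Benjamini-Hochberg adjusted p under 0.05 over 8236 genes. In Adam17ex mice 19 of the 39 tested members were higher after cerulein than after PBS and 4 were lower, which is 59.0% called, against 30.3% of all tested genes. Of all genes tested, 14.1% were higher in this comparison and 16.2% lower, whereas 48.7% of the members were higher. In WT mice 6 members were higher and 10 lower, which is 41.0%, close to the 41.1% of all tested genes (19.8% higher and 21.3% lower). The members' median change was 0.60 in Adam17ex, where the median of all genes was -0.03, and 0.03 in WT, where it was -0.04. Cerulein and PBS libraries did not overlap for 18 members that were higher and 2 that were lower in Adam17ex mice, against 25.7% of all tested genes (13.8% higher and 11.9% lower). In WT mice they did not overlap for 8 that were higher and 9 that were lower, against 39.3% of all tested genes (19.2% higher and 20.2% lower). Tested members had a median of 920 UMIs over the 16 libraries and all tested genes 337. A minimum count of 30 left 34 members and 3839 genes. Of all genes 54.4% were then called in WT mice and 40.4% in Adam17ex mice. The members numbered 6 higher and 8 lower in WT mice, and 16 higher and 4 lower in Adam17ex mice.

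With libraries scaled by their totals alone, a setting chosen after seeing the data, the WT values of all genes moved by 0.23, and 64.0% of the calls over all genes were higher, against 48.1% with TMM. The members then numbered 10 higher and 6 lower in WT mice, and 19 higher and 4 lower in Adam17ex mice. Thinned to equal depth, also chosen after seeing the data, they numbered 8 higher and 5 lower in WT mice, and 14 higher and 3 lower in Adam17ex mice. Markers of several cell types moved with the cerulein comparisons. In Adam17ex mice 2 of 7 acinar markers were lower after cerulein (median -0.17), as were 6 of 7 islet (median -1.88), 4 of 5 fibroblast, 3 of 3 B and plasma cell, 3 of 4 adipocyte and 2 of 3 macrophage markers, and 1 of 4 duct markers was higher. In WT mice 5 of 7 acinar markers were lower (median -0.82), as were 1 of 5 fibroblast and 1 of 2 endothelial markers. So were 3 of 3 B and plasma cell and 4 of 4 adipocyte markers. Higher in WT mice were 4 of 4 duct markers (median 2.04) and 1 of 3 macrophage markers. Of the 28 digestive enzymes 12 were lower and 4 higher in WT mice, and 1 was lower and 4 higher in Adam17ex mice. The part of these cell types in the members' changes was not tested. In whole tissue, fewer cells of a type and less RNA per cell cannot be told apart.

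Higher after cerulein in both genotypes were Cars, Gars, Nars, Rars, Sars and Slc3a2. Lower in both were Cbs, Slc7a8 and Slc6a9. Called higher in Adam17ex and not called in WT were Aars, Iars, Tars, Vars, Yars, Asns, Phgdh, Psat1, Psph, Shmt2, Slc7a1, Slc7a5 and Got1. Called lower in WT and not called in Adam17ex were Kars, Cth, Slc38a2, Slc1a4, Gpt2, Aldh18a1 and Pycr1. Called lower in Adam17ex and not called in WT was Wars. Dars, Eprs, Hars, Lars, Mars1, Qars, Farsa, Farsb and Mthfd2 passed in neither genotype. A call in 1 genotype alone does not show a difference between genotypes, and the test of that difference, the interaction, called 9 members, given further on.

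**Figure D1:**
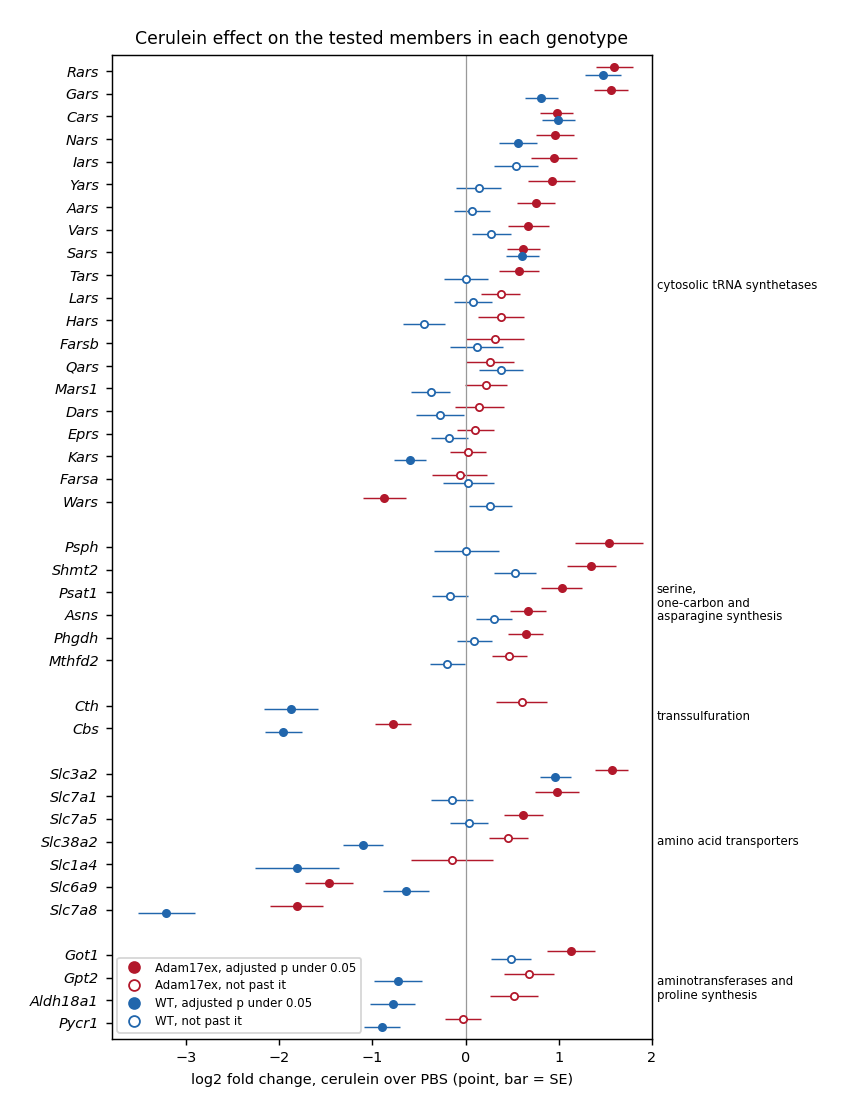
Log2 fold change of cerulein over PBS (horizontal axis) for the 39 tested members, in Adam17ex (red) and WT (blue) mice, with bars for the SE of the edgeR fit. Filled points passed an adjusted p of 0.05. Most synthetases and serine enzymes lie to the right in Adam17ex, from 1.60 for Rars to -0.87 for Wars, and transsulfuration, Slc38a2, Slc1a4 and proline enzymes lie to the left in WT.

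**Figure D2:**
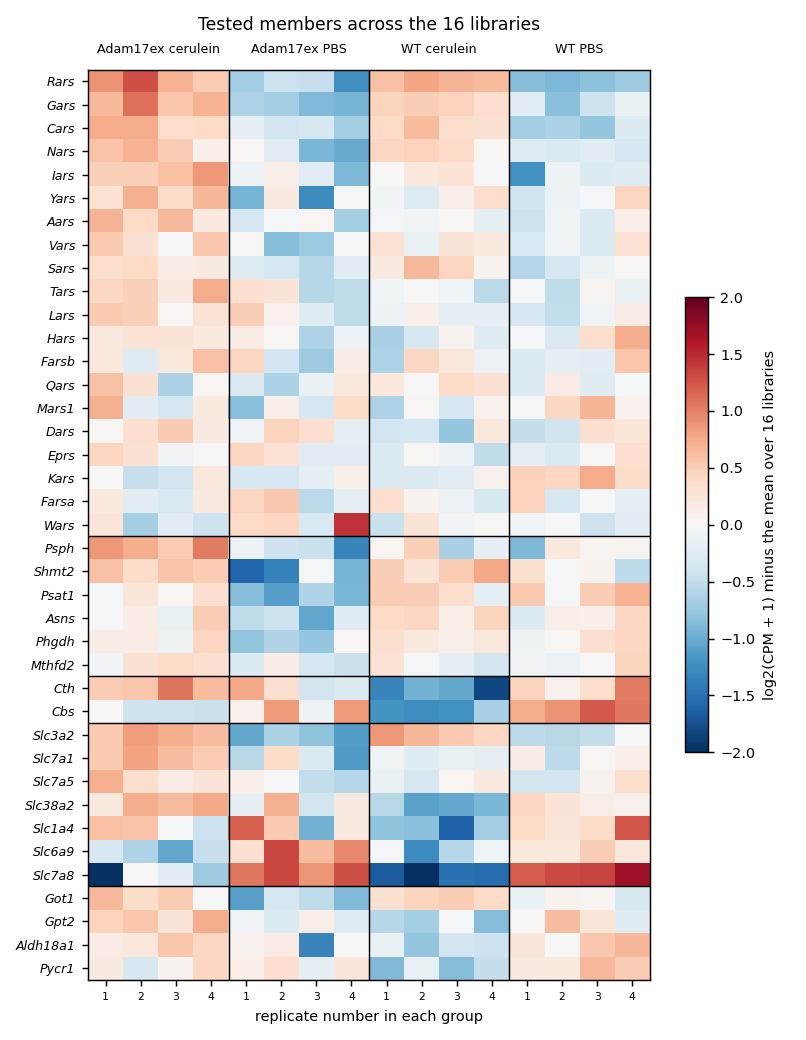
Level of each tested member (rows, grouped by role) in the 16 libraries (columns, grouped by genotype and treatment), as log2(CPM + 1) minus the member's mean over all libraries. The colour scale stops at -2 and 2, and values beyond share the end colours. Slc7a8 is the row with the widest spread, and replicate 4 of Adam17ex PBS stands out for Wars.

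Of the 20 cytosolic synthetases, 10 were higher and 1 lower after cerulein in Adam17ex mice, which is 55.0% against the 30.3% of all genes, with a median change of 0.48. Leaving out the 3 shallow libraries left 1 Adam17ex PBS library, and fewer synthetases and fewer of all genes were then called in this comparison. In WT mice 5 were higher and 1 lower, which is 30.0% against the 41.1% of all genes, with a median of 0.13. In the sums over all 20 before TMM scaling, their UMIs made up 0.195% to 0.226% of a library in Adam17ex cerulein and 0.126% to 0.133% in Adam17ex PBS, against 0.195% to 0.233% in WT cerulein and 0.135% to 0.149% in WT PBS. The ranges of the cerulein and PBS libraries did not overlap in either genotype. In sums of this kind a member with many counts, such as Nars, weighs most.

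Rars (chr11:35808381-35834506 on GRCm38), the arginyl-tRNA synthetase, had the largest positive change of the synthetases in both genotypes. In Adam17ex mice Rars had 156, 207, 136 and 119 CPM after cerulein, against 52.0, 62.0, 60.3 and 35.4 CPM after PBS. WT mice had 127, 145, 135 and 131 CPM after cerulein, against 45.8, 44.7, 47.2 and 50.2 CPM after PBS. No cerulein library overlapped a PBS library of the same genotype. Rars rose by 1.60 ± 0.20, edgeR adjusted p = 3.93e-06 in Adam17ex mice and by 1.47 ± 0.19, edgeR adjusted p = 2.38e-06 in WT mice, and the difference between these changes was 0.12 ± 0.28, edgeR adjusted p = 0.839.

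Gars (chr6:55038007-55079500), the glycyl-tRNA synthetase of cytosol and mitochondria, rose in both genotypes as well. In Adam17ex mice Gars had 234, 319, 218 and 242 CPM after cerulein, against 96.2, 93.0, 80.4 and 77.8 CPM after PBS. WT mice had 203, 210.4, 205 and 188 CPM after cerulein, against 127, 82.7, 111 and 134 CPM after PBS. The cerulein libraries lay above all PBS libraries in each genotype, and the Adam17ex cerulein libraries lay above the WT cerulein ones. The change was 1.56 ± 0.18, edgeR adjusted p = 1.65e-06 in Adam17ex mice and 0.81 ± 0.18, edgeR adjusted p = 0.000776 in WT mice. The difference of 0.75 ± 0.25 missed the threshold (edgeR adjusted p = 0.0813), and passed it without WT PBS replicate 2 (0.90, adjusted p = 0.0329).

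Cars (chr7:143557230-143600090), the cysteinyl-tRNA synthetase, changed by similar amounts in both genotypes. In Adam17ex mice Cars had 189.9, 189, 144 and 149 CPM after cerulein, against 98.8, 87.8, 90.4 and 69.7 CPM after PBS. WT mice had 150.1, 176, 144 and 139.7 CPM after cerulein, against 70.5, 73.0, 66.1 and 93.1 CPM after PBS. Cerulein and PBS libraries did not overlap. The change was 0.98 ± 0.18, edgeR adjusted p = 0.000287 in Adam17ex mice and 0.99 ± 0.17, edgeR adjusted p = 9.01e-05 in WT mice. Their difference was -0.02 ± 0.25, edgeR adjusted p = 0.984.

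Nars and Sars, which load asparagine and serine, were also higher in both genotypes. Nars averaged 460.3 ± 75.6 CPM in Adam17ex cerulein and 239.5 ± 84.5 in Adam17ex PBS, against 416 ± 53.4 in WT cerulein and 272 ± 8.48 in WT PBS (SD, n = 4 each). It changed by 0.96 ± 0.20, edgeR adjusted p = 0.00109 in Adam17ex and by 0.56 ± 0.20, edgeR adjusted p = 0.0283 in WT mice. The WT call was lost without WT cerulein 2 and 3 or WT PBS 4 (adjusted p = 0.0502 to 0.0868). Sars changed by 0.62 ± 0.18, edgeR adjusted p = 0.0114 in Adam17ex and by 0.61 ± 0.17, edgeR adjusted p = 0.00749 in WT mice. Its Adam17ex call was lost without the 3 shallow libraries (0.54, adjusted p = 0.239).

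Aars (chr8:111033144-111057664), the alanyl-tRNA synthetase, is the first of 5 synthetases that were called in Adam17ex mice and not in WT mice. In Adam17ex mice Aars had 84.4, 69.3, 82.8 and 59.9 CPM after cerulein, against 41.6, 51.6, 54.2 and 32.3 CPM after PBS. WT mice had 51.5, 49.8, 53.7 and 46.3 CPM after cerulein, against 38.8, 49.1, 43.0 and 57.6 CPM after PBS. The Adam17ex cerulein libraries lay above those of each other group, and the WT libraries overlapped. Aars changed by 0.75 ± 0.20, edgeR adjusted p = 0.00781 in Adam17ex mice and by 0.06 ± 0.19, edgeR adjusted p = 0.817 in WT mice. The difference between genotypes did not pass under cerulein (0.51 ± 0.19, edgeR adjusted p = 0.0863) or as an interaction (0.68 ± 0.28, edgeR adjusted p = 0.156).

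The other 4 were Iars, Yars, Vars and Tars, for isoleucine, tyrosine, valine and threonine. Iars changed by 0.94 ± 0.25, edgeR adjusted p = 0.00598 in Adam17ex and by 0.54 ± 0.23, edgeR adjusted p = 0.0688 in WT mice, and its cerulein and PBS libraries did not overlap in either genotype. Without WT PBS replicate 2 its WT change passed (0.71, adjusted p = 0.0323), and likewise without Adam17ex PBS replicate 4 (0.59, adjusted p = 0.0272). Yars changed by 0.92 ± 0.26, edgeR adjusted p = 0.00894 in Adam17ex and by 0.14 ± 0.24, edgeR adjusted p = 0.670 in WT mice, and Vars by 0.67 ± 0.22, edgeR adjusted p = 0.0245 in Adam17ex and by 0.28 ± 0.21, edgeR adjusted p = 0.306 in WT mice. Both Adam17ex calls were lost without the 3 shallow libraries (Yars 0.55, adjusted p = 0.312, Vars 0.43, adjusted p = 0.384), and that of Vars also without Adam17ex PBS 2 and 3 (adjusted p = 0.0653 to 0.0808). Tars was just inside the threshold in Adam17ex mice (0.57 ± 0.22, edgeR adjusted p = 0.0490), and its libraries overlapped. Its call was lost without Adam17ex cerulein 2 and 4, Adam17ex PBS 3 and 4 or WT cerulein 2 and 3 (adjusted p = 0.0506 to 0.150).

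Wars (chr12:108860030-108894174), the tryptophanyl-tRNA synthetase, which interferon gamma is known to induce, went the other way. In Adam17ex mice Wars had 90.7, 48.0, 66.0 and 57.2 CPM after cerulein, against 101, 103, 62.3 and 211 CPM after PBS. WT mice had 56.1, 93.0, 73.8 and 77.7 CPM after cerulein, against 72.9, 77.4, 57.7 and 66.2 CPM after PBS. Adam17ex PBS replicate 4 had the highest value, against 103 CPM in the next library, and the other libraries overlapped between all groups. Wars fell in Adam17ex mice (-0.87 ± 0.23, edgeR adjusted p = 0.00662) and did not pass in WT mice (0.26 ± 0.23, edgeR adjusted p = 0.378). The Adam17ex call was lost without Adam17ex PBS replicate 4 (-0.46, adjusted p = 0.135) and without Adam17ex cerulein replicate 4 (-0.62, adjusted p = 0.0666).

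Kars, the lysyl-tRNA synthetase of cytosol and mitochondria, was the only synthetase called lower in WT mice. It averaged 48.4 ± 11 CPM in Adam17ex cerulein and 46.7 ± 7.60 in Adam17ex PBS, against 47.0 ± 6.21 in WT cerulein and 75.4 ± 9.40 in WT PBS (SD, n = 4 each). The WT change of -0.60 ± 0.18, edgeR adjusted p = 0.00924 was lost without WT cerulein 3 or WT PBS 3 (adjusted p = 0.0516 to 0.0628). In Adam17ex mice it was 0.03 ± 0.19, edgeR adjusted p = 0.933. The 8 synthetase rows called in neither genotype were Dars, Eprs, Hars, Lars, Mars1, Qars, Farsa and Farsb. Their changes ran from -0.06 for Farsa to 0.38 for Hars in Adam17ex mice and from -0.45 for Hars to 0.38 for Qars in WT mice. Farsa and Farsb, the subunits of phenylalanyl-tRNA synthetase, were also the synthetases with the lowest counts, at 319 and 276 UMIs over the 16 libraries.

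Of the enzymes that make serine and asparagine and pass the carbon of serine on to folate, 5 of 6 were higher after cerulein in Adam17ex mice, with a median change of 0.85. Of these, Psph and Shmt2 were called without the 3 shallow libraries, against 1 remaining Adam17ex PBS library with 5 and 21 UMIs. In WT mice 0 of 6 passed, with a median of 0.05. The share called was 83.3% in Adam17ex mice, against 30.3% of all genes, and 0% in WT mice, against 41.1%. In WT mice 1 of the 6, Shmt2, had an unadjusted p under 0.05 in edgeR, and DESeq2 called 0. Under PBS all 6 had negative values for Adam17ex over WT, from -1.39 for Psat1, which passed, to -0.39 for Mthfd2.

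Psat1 (chr19:15904678-15947337), the aminotransferase of the middle step of serine synthesis, was lowest in the Adam17ex PBS group. In Adam17ex mice Psat1 had 65.4, 80.0, 69.6 and 85.1 CPM after cerulein, against 36.4, 31.0, 44.2 and 35.4 CPM after PBS. WT mice had 95.9, 95.2, 86.7 and 59.5 CPM after cerulein, against 97.6, 66.3, 96.6 and 110.3 CPM after PBS. The Adam17ex PBS libraries lay below all others, and the Adam17ex cerulein libraries lay within the WT range. Psat1 rose in Adam17ex mice (1.03 ± 0.22, edgeR adjusted p = 0.00109) and did not pass in WT mice (-0.17 ± 0.19, edgeR adjusted p = 0.507). The interaction was 1.20 ± 0.29, edgeR adjusted p = 0.0156, and under PBS Psat1 was lower in Adam17ex than in WT mice (-1.39 ± 0.23, edgeR adjusted p = 0.00478). Under cerulein the genotypes did not differ past the threshold (-0.19 ± 0.19, edgeR adjusted p = 0.595). Without the 3 shallow Adam17ex PBS libraries the change kept its size and missed the threshold in Adam17ex mice (1.05, adjusted p = 0.0579), in the interaction (1.22, adjusted p = 0.148) and under PBS (-1.38, adjusted p = 0.160), with the lone remaining library taken to vary like the other groups.

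Psph (chr5:129765558-129787449), the phosphatase of the last step, was the member of this group with the fewest UMIs. In Adam17ex mice Psph had 26.4, 24.0, 20.4 and 30.0 CPM after cerulein, against 13, 10.3, 10.1 and 5.05 CPM after PBS. WT mice had 14.5, 19.9, 8.60 and 12.4 CPM after cerulein, against 7.05, 16.4, 14.7 and 14.7 CPM after PBS. Adam17ex cerulein libraries lay above those of each other group, and WT libraries overlapped. Psph changed by 1.54 ± 0.37, edgeR adjusted p = 0.00298 in Adam17ex and by 0.01 ± 0.35, edgeR adjusted p = 0.992 in WT mice. The interaction (1.53 ± 0.50, edgeR adjusted p = 0.0684) and the difference under cerulein (0.91 ± 0.29, edgeR adjusted p = 0.0511) lay just outside the threshold.

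Phgdh (chr3:98313170-98339990), the dehydrogenase of the first step, had more counts and a smaller change. In Adam17ex mice Phgdh had 209, 209, 175 and 256 CPM after cerulein, against 109, 124, 110.5 and 194 CPM after PBS. WT mice had 236, 216, 202 and 222 CPM after cerulein, against 176, 192, 237 and 255 CPM after PBS. Adam17ex PBS replicate 4 lay within the range of the Adam17ex cerulein libraries, and the other 3 Adam17ex PBS libraries lay below that range. Phgdh changed by 0.65 ± 0.19, edgeR adjusted p = 0.0118 in Adam17ex and by 0.09 ± 0.18, edgeR adjusted p = 0.715 in WT mice. Without the 3 shallow libraries the Adam17ex change was 0.19, adjusted p = 0.705.

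Shmt2 (chr10:127517123-127522444) moves the carbon of serine onto folate in mitochondria, and Mthfd2 (chr6:83305691-83325908) carries that carbon further. In Adam17ex mice Shmt2 had 62.2, 53.3, 61.2 and 58.6 CPM after cerulein, against 13, 15.5, 40.2 and 21.2 CPM after PBS. WT mice had 57.9, 49.8, 58.7 and 71.1 CPM after cerulein, against 51.7, 40.2, 43.0 and 28.2 CPM after PBS. The Adam17ex cerulein and PBS libraries did not overlap, and the lowest values were Adam17ex PBS replicates 1 and 2. Shmt2 rose in Adam17ex mice (1.35 ± 0.27, edgeR adjusted p = 0.000559). Without the 3 shallow libraries its change was 1.51, against 1 remaining Adam17ex PBS library with 21 UMIs. The WT change was 0.53 ± 0.23, edgeR adjusted p = 0.0662, and it passed in females only (0.59, adjusted p = 0.0407). In Adam17ex mice Mthfd2 had 148, 190.2, 202 and 192 CPM after cerulein, against 127, 170.4, 120.5 and 112 CPM after PBS. WT mice had 187, 149.5, 133 and 119 CPM after cerulein, against 147, 141, 154 and 209.5 CPM after PBS. Mthfd2 libraries of all groups overlapped. It did not pass in Adam17ex (0.47 ± 0.19, edgeR adjusted p = 0.0640) or WT mice (-0.20 ± 0.19, edgeR adjusted p = 0.428).

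Asns (chr6:7675169-7693254), which makes asparagine from aspartate and glutamine, was among the members with the most counts. In Adam17ex mice Asns had 519, 594, 484 and 760.2 CPM after cerulein, against 374, 400.2, 261 and 450.5 CPM after PBS. WT mice had 704, 716, 584 and 732 CPM after cerulein, against 443, 579, 576 and 716 CPM after PBS. Cerulein libraries lay above PBS libraries in Adam17ex mice and overlapped with them in WT mice. Asns changed by 0.67 ± 0.19, edgeR adjusted p = 0.0110 in Adam17ex and by 0.30 ± 0.19, edgeR adjusted p = 0.225 in WT mice, and the interaction was 0.37 ± 0.27, edgeR adjusted p = 0.459. The Adam17ex call was lost without the 3 shallow libraries (0.46, adjusted p = 0.353).

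**Figure D3:**
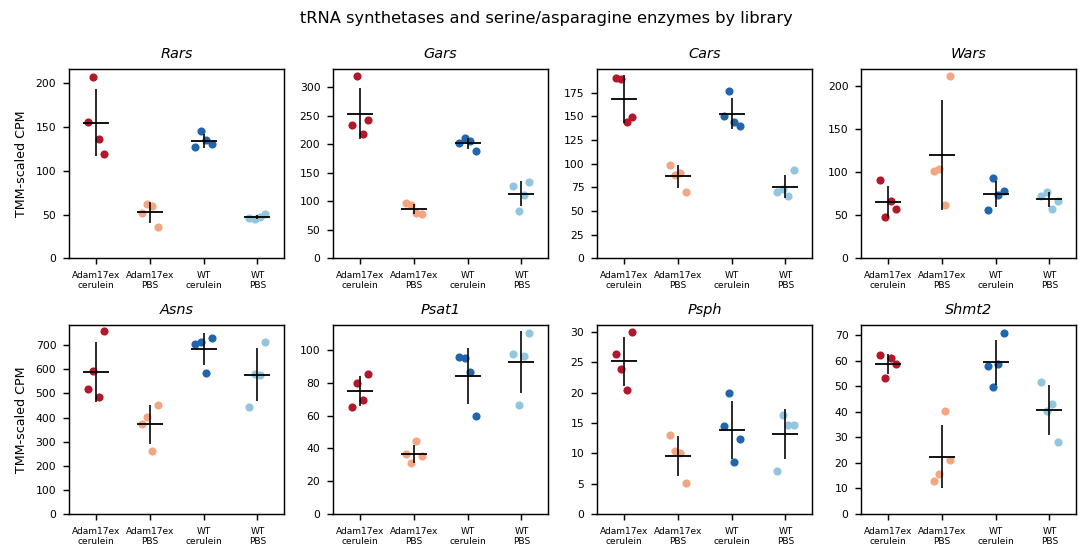
TMM-scaled CPM of 4 synthetases (Rars, Gars, Cars, Wars) and 4 enzymes of asparagine and serine synthesis (Asns, Psat1, Psph, Shmt2) in each library, with black marks for the mean and SD of the 4 mice in a group. Rars and Cars are high in both cerulein groups, and Psat1 is low in Adam17ex PBS, at 31.0 to 44.2 CPM.

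Transsulfuration turns homocysteine and serine into cysteine. Cbs (chr17:31608894-31637238) joins them to cystathionine and Cth (chr3:157894248-157925077) cleaves it. Both fell after cerulein in WT mice, and the Adam17ex cerulein libraries were higher than the WT cerulein libraries for both. In Adam17ex mice Cth had 41.1, 42.7, 61.2 and 45.0 CPM after cerulein, against 49.4, 36.1, 22.1 and 23.2 CPM after PBS. WT mice had 10.8, 14.4, 13.6 and 7.44 CPM after cerulein, against 39.96, 30.5, 36.7 and 60.0 CPM after PBS. The 4 WT cerulein libraries lay below all 12 others. Cth did not pass in Adam17ex mice (0.60 ± 0.27, edgeR adjusted p = 0.0971), fell in WT mice (-1.88 ± 0.29, edgeR adjusted p = 1.82e-05), and its interaction of 2.48 ± 0.40, edgeR adjusted p = 0.000546 was the largest of the members. Under cerulein it was higher in Adam17ex than in WT mice (1.97 ± 0.28, edgeR adjusted p = 5.57e-05). These 3 calls of Cth held under all 28 other settings that were run, including females only (interaction 2.45, edgeR adjusted p = 0.0204). Without the 3 shallow libraries, which left 1 Adam17ex PBS library, the interaction was 2.82.

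In Adam17ex mice Cbs had 92.8, 69.3, 68.4 and 68.1 CPM after cerulein, against 98.8, 168, 86.4 and 169 CPM after PBS. WT mice had 39.8, 38.8, 39.4 and 58.7 CPM after cerulein, against 155, 174, 219 and 194 CPM after PBS. WT cerulein libraries were the lowest and Adam17ex cerulein libraries came next. The PBS libraries lay above them except Adam17ex PBS replicate 3, which lay below Adam17ex cerulein replicate 1. Cbs fell in both genotypes, with a change of -0.78 ± 0.19, edgeR adjusted p = 0.00424 in Adam17ex mice and -1.96 ± 0.20, edgeR adjusted p = 6.08e-08 in WT mice. The Adam17ex call was lost without Adam17ex cerulein replicate 4 (-0.58, adjusted p = 0.0504). The difference between genotypes passed as an interaction (1.18 ± 0.27, edgeR adjusted p = 0.0125) and under cerulein (0.86 ± 0.20, edgeR adjusted p = 0.00717). Without the 3 shallow libraries the interaction did not pass (0.95, adjusted p = 0.175).

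Among the 7 tested transporters 3 were higher and 2 lower after cerulein in Adam17ex mice, with a median of 0.46. This is 71.4%, against 30.3% of all genes. In WT mice 1 was higher and 4 were lower, with a median of -0.64, which is 71.4% against 41.1%. The transporters thus differed among themselves more than the synthetases, with changes from -1.81 to 1.57 in Adam17ex and from -3.21 to 0.96 in WT mice.

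Slc3a2 (chr19:8706882-8723369) encodes the heavy chain that brings several amino acid exchangers to the surface, among them those of Slc7a5 and Slc7a8. In Adam17ex mice Slc3a2 had 374, 464, 432 and 398 CPM after cerulein, against 127, 168, 149 and 119 CPM after PBS. WT mice had 477, 413, 377 and 349 CPM after cerulein, against 181, 176, 187 and 257 CPM after PBS. Cerulein libraries lay above PBS libraries in both genotypes, and Adam17ex PBS lay below WT PBS. Slc3a2 rose by 1.57 ± 0.17, edgeR adjusted p = 7.35e-07 in Adam17ex and by 0.96 ± 0.17, edgeR adjusted p = 9.47e-05 in WT mice.

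Its light chain Slc7a5 (chr8:121881150-121907694), which exchanges large neutral amino acids, changed less. In Adam17ex mice Slc7a5 had 173, 134, 118 and 126 CPM after cerulein, against 114, 106, 74.3 and 70.7 CPM after PBS. WT mice had 95.9, 83.1, 108 and 119.9 CPM after cerulein, against 81.1, 80.4, 110.2 and 135 CPM after PBS. Adam17ex cerulein libraries lay above Adam17ex PBS, and WT libraries overlapped. Slc7a5 changed by 0.62 ± 0.21, edgeR adjusted p = 0.0310 in Adam17ex and by 0.04 ± 0.21, edgeR adjusted p = 0.910 in WT mice. The Adam17ex call was lost without Adam17ex cerulein 1 and 2 or Adam17ex PBS 3 and 4 (adjusted p = 0.0522 to 0.0989).

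Slc7a8 (chr14:54722209-54781946), the other light chain of neutral exchange, fell further than any other member. In Adam17ex mice Slc7a8 had 7.38, 42.7, 36.0 and 25.2 CPM after cerulein, against 88.4, 108, 78.4 and 105 CPM after PBS. WT mice had 12.7, 8.86, 14.3 and 14.1 CPM after cerulein, against 98.7, 107, 109 and 138 CPM after PBS. Cerulein and PBS libraries did not overlap in either genotype, and Adam17ex cerulein replicate 1 lay below the WT cerulein libraries while replicates 2 to 4 lay above them. Its change was -1.81 ± 0.29, edgeR adjusted p = 5.61e-05 in Adam17ex and -3.21 ± 0.30, edgeR adjusted p = 2.20e-08 in WT mice. The interaction of 1.40 ± 0.41, edgeR adjusted p = 0.0463 was lost when any of 14 of the 16 libraries was left out, namely Adam17ex cerulein 2, 3 and 4, Adam17ex PBS 1, 2 and 3, WT cerulein 1, 2, 3 and 4 or WT PBS 1, 2, 3 and 4 (adjusted p = 0.0501 to 0.173), and without the 3 shallow ones (1.02, adjusted p = 0.326).

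Slc38a2 (chr15:96687392-96699730), a sodium-coupled carrier of small neutral amino acids, fell in WT mice and not in Adam17ex mice. In Adam17ex mice Slc38a2 had 140.3, 204, 189.7 and 208 CPM after cerulein, against 109, 201, 94.4 and 139 CPM after PBS. WT mice had 83.2, 57.6, 59.5 and 64.5 CPM after cerulein, against 165, 146, 132 and 129.9 CPM after PBS. The 4 WT cerulein libraries lay below all 12 others. The change of Slc38a2 was 0.46 ± 0.21, edgeR adjusted p = 0.0994 in Adam17ex and -1.10 ± 0.22, edgeR adjusted p = 0.000283 in WT mice. The interaction was 1.56 ± 0.30, edgeR adjusted p = 0.00251, and under cerulein Slc38a2 was higher in Adam17ex than in WT mice (1.50 ± 0.21, edgeR adjusted p = 4.61e-05). Both calls held when any 1 library was left out. Without the 3 shallow ones, which left 1 Adam17ex PBS library, the interaction was 1.49. In females only the interaction missed the threshold (1.33, edgeR adjusted p = 0.0680).

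Slc7a1 (chr5:148327410-148399904), the carrier of arginine, lysine and ornithine, rose in Adam17ex mice. In Adam17ex mice Slc7a1 had 138, 169, 148 and 137 CPM after cerulein, against 65.0, 124, 78.4 and 43.4 CPM after PBS. WT mice had 91.3, 80.8, 86.7 and 84.3 CPM after cerulein, against 107, 66.3, 97.6 and 105 CPM after PBS. Adam17ex cerulein libraries lay above those of each other group, and WT libraries overlapped. Slc7a1 changed by 0.98 ± 0.23, edgeR adjusted p = 0.00290 in Adam17ex and by -0.15 ± 0.22, edgeR adjusted p = 0.634 in WT mice. It was higher in Adam17ex mice under cerulein (0.76 ± 0.22, edgeR adjusted p = 0.0297) and had an interaction of 1.12 ± 0.32, edgeR adjusted p = 0.0392. The interaction was lost without Adam17ex cerulein 2 and 3, Adam17ex PBS 1, 3 and 4, WT cerulein 1, 2, 3 and 4 or WT PBS 1, 3 and 4 (adjusted p = 0.0518 to 0.100), and the call under cerulein without Adam17ex cerulein 1, 2 and 4 or WT cerulein 1, 2, 3 and 4 (adjusted p = 0.0504 to 0.120).

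Slc1a4, which exchanges alanine, serine and cysteine, had 140 UMIs in all. It averaged 10.4 ± 3.73 CPM in Adam17ex cerulein and 12 ± 6.97 in Adam17ex PBS, against 4.01 ± 1.27 in WT cerulein and 13.9 ± 5.44 in WT PBS (SD, n = 4 each). It did not pass in Adam17ex mice (-0.15 ± 0.44, edgeR adjusted p = 0.824) and fell in WT mice (-1.81 ± 0.45, edgeR adjusted p = 0.00255). Slc6a9, a glycine transporter, was lower after cerulein in Adam17ex mice (-1.47 ± 0.26, edgeR adjusted p = 0.000178). In WT mice it was just inside the threshold (-0.64 ± 0.25, edgeR adjusted p = 0.0444), and that call was lost under 19 of 28 other settings, among them leaving out Adam17ex cerulein 1, 2 and 4, Adam17ex PBS 2, 3 and 4, WT cerulein 2 and 3 or WT PBS 1, 2, 3 and 4 (adjusted p = 0.0505 to 0.187).

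The last group makes alanine, aspartate and proline from glutamate. In Adam17ex mice 1 of its 4 enzymes was higher after cerulein, with a median of 0.60. In WT mice 3 of 4 were lower, with a median of -0.76. This is 25% in Adam17ex, against 30.3% of all genes, and 75% in WT mice, against 41.1%. Gpt2 (chr8:85492576-85527560) is the mitochondrial alanine aminotransferase. In Adam17ex mice Gpt2 had 30.6, 32.9, 26.4 and 37.5 CPM after cerulein, against 20.8, 18.1, 24.1 and 18.2 CPM after PBS. WT mice had 14.5, 13.3, 21.5 and 11.6 CPM after cerulein, against 22.3, 34.2, 26.2 and 18.4 CPM after PBS. Adam17ex cerulein libraries lay above Adam17ex PBS and WT cerulein libraries, and WT groups overlapped. Gpt2 did not pass in Adam17ex mice (0.68 ± 0.27, edgeR adjusted p = 0.0580) and fell in WT mice (-0.73 ± 0.26, edgeR adjusted p = 0.0258). It was higher in Adam17ex mice under cerulein (1.07 ± 0.25, edgeR adjusted p = 0.00630). Its interaction was 1.41 ± 0.37, edgeR adjusted p = 0.0248, and was not called without the 3 shallow libraries. Leaving out Adam17ex cerulein 2, Adam17ex PBS 4, WT cerulein 2 and 4 or WT PBS 2 ended the interaction call (adjusted p = 0.0504 to 0.0658), leaving out Adam17ex cerulein 4 ended the call under cerulein (adjusted p = 0.0542), and leaving out WT cerulein 1, 2 and 4 or WT PBS 2 and 3 ended the WT call (adjusted p = 0.0568 to 0.175).

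Aldh18a1 (chr19:40550257-40588463) opens the route to proline and Pycr1 (chr11:120635712-120643769) closes it. In Adam17ex mice Aldh18a1 had 41.1, 42.7, 54.0 and 49.0 CPM after cerulein, against 39.0, 41.3, 14.1 and 36.4 CPM after PBS. WT mice had 33.5, 21.0, 27.9 and 27.3 CPM after cerulein, against 43.5, 36.5, 53.5 and 58.8 CPM after PBS. WT cerulein libraries lay below WT PBS and Adam17ex cerulein libraries. Aldh18a1 did not pass in Adam17ex mice (0.52 ± 0.26, edgeR adjusted p = 0.131), fell in WT mice (-0.78 ± 0.24, edgeR adjusted p = 0.0122) and had an interaction of 1.30 ± 0.35, edgeR adjusted p = 0.0280. The WT call was lost without WT PBS 4 (adjusted p = 0.0545), and the interaction without Adam17ex cerulein 2 and 3, WT cerulein 2, 3 and 4 or WT PBS 3 and 4 (adjusted p = 0.0514 to 0.0733). Without the 3 shallow libraries the Aldh18a1 interaction was not called either. In Adam17ex mice Pycr1 had 67.5, 47.1, 62.4 and 79.0 CPM after cerulein, against 65.0, 74.9, 52.2 and 70.7 CPM after PBS. WT mice had 31.7, 53.2, 32.2 and 42.2 CPM after cerulein, against 67.0, 67.8, 93.4 and 84.5 CPM after PBS. WT cerulein libraries lay below WT PBS libraries, and Adam17ex groups overlapped. Pycr1 did not pass in Adam17ex mice (-0.03 ± 0.19, edgeR adjusted p = 0.918), fell in WT mice (-0.90 ± 0.19, edgeR adjusted p = 0.000626), and its interaction was just outside the threshold (0.86 ± 0.27, edgeR adjusted p = 0.0595).

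Got1 (chr19:43499752-43524605), the cytosolic aspartate aminotransferase, differed from the other 3. In Adam17ex mice Got1 had 36.9, 30.2, 33.6 and 23.2 CPM after cerulein, against 10.4, 18.1, 16.1 and 12.1 CPM after PBS. WT mice had 28.9, 32.1, 33.0 and 30.6 CPM after cerulein, against 21.2, 24.6, 24.1 and 18.4 CPM after PBS. Cerulein libraries lay above PBS libraries in both genotypes, and Adam17ex PBS lay below WT PBS. Got1 rose in Adam17ex mice (1.13 ± 0.26, edgeR adjusted p = 0.00212) and its WT change missed the threshold (0.48 ± 0.21, edgeR adjusted p = 0.0747).

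**Figure D4:**
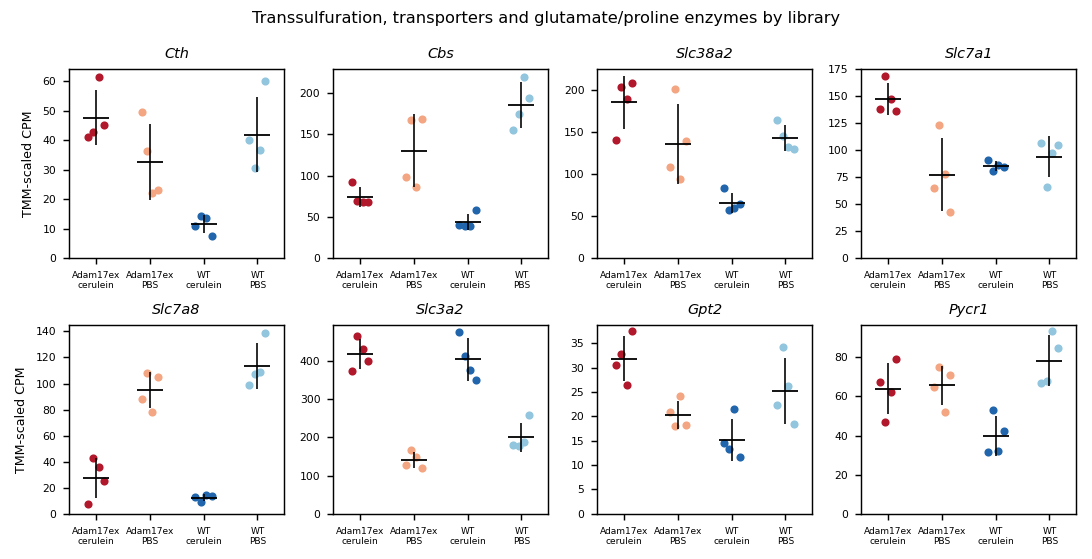
TMM-scaled CPM of Cth and Cbs, the transporters Slc38a2, Slc7a1, Slc7a8 and Slc3a2, and Gpt2 and Pycr1 in each library, with black marks for the mean and SD of the 4 mice in a group. In the Cth and Slc38a2 panels the 4 WT cerulein libraries lie below all others, at 7.44 to 14.4 and 57.6 to 83.2 CPM.

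Setting Adam17ex against WT mice under cerulein, 8 of 39 members were higher and 0 lower, which is 20.5%, against 9.70% of all tested genes (5.85% higher and 3.85% lower). By DESeq2 7 members were higher and 0 lower, and 0 members were lower at an unadjusted p under 0.05. The members' median was 0.39 and that of all genes 0.01. The 8 were Cth, Cbs, Slc38a2, Slc7a1, Gpt2, Aldh18a1, Pycr1 and Tars, so that 1 of 20 synthetases, 0 of 6 serine and asparagine enzymes, 2 of 2 transsulfuration enzymes, 2 of 7 transporters and 3 of 4 glutamate and proline enzymes passed. Pycr1 was higher by 0.79 ± 0.19, edgeR adjusted p = 0.00880, and without Adam17ex cerulein 4 or WT cerulein 1 and 3 it was not called (adjusted p = 0.0518 to 0.0603). Aldh18a1 (0.75 ± 0.24, edgeR adjusted p = 0.0459) and Tars (0.65 ± 0.21, edgeR adjusted p = 0.0499) were just inside the threshold. The Aldh18a1 call was lost without Adam17ex cerulein 1, 2, 3 and 4, Adam17ex PBS 2, WT cerulein 1, 2, 3 and 4 or WT PBS 1 and 3 (adjusted p = 0.0525 to 0.137), and the Tars call without Adam17ex cerulein 1, 2 and 4, Adam17ex PBS 2 and 3, WT cerulein 1, 2, 3 and 4 or WT PBS 1, 3 and 4 (adjusted p up to 0.205). Members whose libraries did not overlap between the genotypes numbered 13, all higher in Adam17ex, where 17.6% of all genes did not overlap (9.64% higher and 7.92% lower).

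Cell markers and scaling moved with this comparison. The 6 duct markers summed to 289 to 350.2 CPM in Adam17ex cerulein, against 890.0 to 1156 CPM in WT cerulein libraries, and 4 of the 4 that were tested were lower. Of the 28 digestive enzymes 6 were higher and 0 lower, with a median of 0.41, and the 7 acinar markers summed to 103900 to 132400 CPM in Adam17ex cerulein, against 75300 to 111300 CPM in WT cerulein. The part of acinar and duct content in the members' differences was not tested. With totals alone in place of TMM the values of all genes moved by -0.26 and 27.2% of the calls over all genes were higher, against 60.3% with TMM. Then 2 members, Cth (1.73, adjusted p = 0.000160) and Slc38a2 (1.23, adjusted p = 0.000950), were still called. The members' median was then 0.14 and that of all genes -0.25.

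Under PBS 1 member was higher in Adam17ex than in WT and 1 was lower, which is 5.13%, against 1.36% of all tested genes (0.631% higher and 0.729% lower). The members' median was -0.23 and that of all genes 0.03. With a minimum count of 30, 1 of 34 members was higher and 1 lower, and 3.93% of all genes were called. Psat1 was the lower one, as given above. Wars was the higher one (1.09 ± 0.24, edgeR adjusted p = 0.0298), and that call was lost without Adam17ex PBS 4 or WT PBS 1, 3 and 4 (adjusted p = 0.0639 to 0.180). Kars, Psat1, Slc3a2 and Got1 were below every WT PBS library in all 4 Adam17ex PBS libraries, where 10.4% of all genes did not overlap (4.16% higher and 6.24% lower). The shallow libraries with more ribosomal RNA make up 3 of the 4 in the Adam17ex PBS group, and islet markers summed to 5058 to 22000 CPM in Adam17ex PBS, against 4258 to 13190 CPM in WT PBS. Endothelial markers summed to 39.4 to 65.0 CPM in Adam17ex PBS, against 23.8 to 34.6 CPM in WT PBS, without overlap, and 5 of 5 fibroblast markers had positive values (median 1.16). The endothelial sums rest on few counts, such as 1 to 10 UMIs of Cdh5 per library in Adam17ex PBS. Of the markers tested, 0 of 7 islet, 0 of 2 endothelial, 0 of 5 fibroblast and 0 of 4 adipocyte ones (median 1.11) were called. The part of depth and cell content in these values was not tested.

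The interaction, which asks whether cerulein acted differently in the genotypes, was positive for 8 members and negative for 1, which is 23.1%, against 6.02% of all tested genes (3.75% higher and 2.27% lower). Its median was 0.60 over the members and -0.01 over all genes, and 34 of 39 values were positive. Positive were Cth, Slc38a2, Gpt2, Slc7a8, Aldh18a1, Psat1, Cbs and Slc7a1, and negative was Wars (-1.14 ± 0.32, edgeR adjusted p = 0.0376). The Wars call was lost without Adam17ex cerulein 2 and 4, Adam17ex PBS 1 and 4, WT cerulein 1, 2 and 3 or WT PBS 1, 3 and 4 (adjusted p = 0.0530 to 0.159). By group, 1 of 20 synthetases, 1 of 6 serine and asparagine enzymes, 2 of 2 transsulfuration enzymes, 3 of 7 transporters and 2 of 4 glutamate and proline enzymes passed. The cerulein comparison in Adam17ex, the comparison under PBS and the interaction share the Adam17ex PBS libraries. Without the 3 shallow ones 1 Adam17ex PBS library was left. Fewer members and fewer of all genes then passed in the interaction and after cerulein in Adam17ex mice. The interaction calls that remained were Cth, Slc7a1, Slc38a2 and Wars, the last against the Adam17ex PBS library with the highest Wars level. The members' median was 0.842 in the interaction and 0.545 after cerulein in Adam17ex mice. Those of all genes were 0.0836 and 0.0386. With library totals alone all-gene values moved by -0.21 and 37.5% of the calls were positive, against 62.3% with TMM. With a minimum count of 30, 12.2% of all genes were called, 252 of 3839 positive and 217 negative. Of the 34 members then tested, 6 were positive and 1 negative.

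ATF4 and the genes around it were measured in the same libraries, from a list of 18 genes chosen with earlier results of these data known. All 18 were tested. After cerulein 14 were higher and 1 was lower in Adam17ex mice, which is 83.3% against the 30.3% of all genes, and 10 were higher and 0 lower in WT mice, which is 55.6% against 41.1%. Between genotypes 8 were higher in Adam17ex under cerulein, which is 44.4% against 9.70%, and 4 had positive interactions, which is 22.2% against 6.02%. When the 3 shallow libraries were left out, 1 Adam17ex PBS library remained. Fewer of all genes were then called after cerulein in Adam17ex mice and in the interaction. The 4 interactions, those of Atf4, Chac1, Sesn2 and Eif2ak3, did not pass there. Under PBS edgeR and DESeq2 each called 0, and edgeR gave 4 an unadjusted p under 0.05.

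The Atf4 mRNA was higher in the 4 Adam17ex cerulein libraries than in all 12 others. In Adam17ex mice Atf4 had 584, 630.1, 542 and 428 CPM after cerulein, against 322, 287, 205 and 200.0 CPM after PBS. WT mice had 254, 225, 258 and 241 CPM after cerulein, against 217, 139, 229.9 and 277 CPM after PBS. It changed by 1.11 ± 0.20, edgeR adjusted p = 0.000280 in Adam17ex and by 0.15 ± 0.20, edgeR adjusted p = 0.586 in WT mice, and was higher in Adam17ex mice under cerulein (1.12 ± 0.20, edgeR adjusted p = 0.000830). The interaction was just inside the threshold (0.96 ± 0.29, edgeR adjusted p = 0.0468), and was lost without Adam17ex cerulein 1, 2 and 3, Adam17ex PBS 3 and 4, WT cerulein 1, 2, 3 and 4 or WT PBS 1, 3 and 4 (adjusted p = 0.0582 to 0.122). ATF4 protein is set mainly by translation, which these counts do not measure.

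Trib3, a pseudokinase that ATF4 is known to induce, rose in both genotypes. In Adam17ex mice Trib3 had 45.4, 38.2, 52.8 and 50.4 CPM after cerulein, against 10.4, 5.16, 10.1 and 6.06 CPM after PBS. WT mice had 15.4, 9.97, 5.01 and 7.44 CPM after cerulein, against 3.53, 2.23, 3.15 and 1.23 CPM after PBS. Cerulein and PBS libraries did not overlap, and Adam17ex cerulein lay above WT cerulein. The PBS values rest on few counts, with 2 to 6 UMIs per library in Adam17ex PBS and 1 to 3 in WT PBS. Trib3 changed by 2.59 ± 0.33, edgeR adjusted p = 3.93e-06 in Adam17ex and by 1.72 ± 0.44, edgeR adjusted p = 0.00317 in WT mice, with a difference under cerulein of 2.27 ± 0.27, edgeR adjusted p = 8.18e-06. Its interaction did not pass (0.88 ± 0.64, edgeR adjusted p = 0.482).

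Eif2ak3 encodes PERK, the eIF2α kinase of the endoplasmic reticulum. In Adam17ex mice Eif2ak3 had 209.9, 199.9, 196 and 173 CPM after cerulein, against 39.0, 36.1, 40.2 and 66.7 CPM after PBS. WT mice had 92.2, 84.2, 101 and 81.8 CPM after cerulein, against 62.3, 49.1, 60.9 and 69.8 CPM after PBS. Adam17ex cerulein libraries lay above WT cerulein libraries, and these above both PBS groups. Eif2ak3 changed by 2.03 ± 0.20, edgeR adjusted p = 1.03e-07 in Adam17ex and by 0.60 ± 0.19, edgeR adjusted p = 0.0135 in WT mice, with an interaction of 1.43 ± 0.27, edgeR adjusted p = 0.00250 that held when any 1 library was left out and not without the 3 shallow ones (0.97, adjusted p = 0.143). Eif2ak4, which encodes the kinase GCN2 that senses uncharged tRNA, was lower after cerulein in Adam17ex mice (-0.97 ± 0.34, edgeR adjusted p = 0.0321) and did not pass in WT mice (-0.22 ± 0.30, edgeR adjusted p = 0.578). The Adam17ex call was lost without Adam17ex cerulein 1, 2 and 3 or Adam17ex PBS 1, 2, 3 and 4 (adjusted p = 0.0502 to 0.109) and without the 3 shallow libraries (-0.94, adjusted p = 0.235).

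Chac1, an enzyme that degrades glutathione, and Sesn2, an inhibitor of mTORC1 that binds leucine, were the other 2 interactions. Chac1 averaged 162 ± 54.9 CPM in Adam17ex cerulein and 42.5 ± 28.4 in Adam17ex PBS, against 46.3 ± 19.4 in WT cerulein and 43.9 ± 23.3 in WT PBS (SD, n = 4 each), with an interaction of 1.89 ± 0.54, edgeR adjusted p = 0.0401. Sesn2 averaged 21.7 ± 2.57 CPM in Adam17ex cerulein and 3.67 ± 3.4 in Adam17ex PBS. In WT mice it averaged 5.72 ± 3.46 CPM after cerulein and 4.86 ± 1.45 after PBS. Its interaction was 2.38 ± 0.67, edgeR adjusted p = 0.0367. This rests on few counts, as Sesn2 had 0 to 4 UMIs per library in Adam17ex PBS and 3 to 9 in WT PBS. The Chac1 interaction was lost without Adam17ex cerulein 2, 3 and 4, Adam17ex PBS 1 and 3, WT cerulein 2, 3 and 4 or WT PBS 3 and 4 (adjusted p = 0.0578 to 0.107) and that of Sesn2 without Adam17ex cerulein 2, 3 and 4, Adam17ex PBS 2, WT cerulein 2, 3 and 4 or WT PBS 1, 2 and 4 (adjusted p = 0.0540 to 0.0933). Ddit3, which encodes CHOP, had 1.18 to 24.5 CPM over the 16 libraries and passed in no comparison. Its changes were -0.22 ± 0.51, edgeR adjusted p = 0.770 in Adam17ex and -0.65 ± 0.53, edgeR adjusted p = 0.344 in WT mice.

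**Figure D5:**
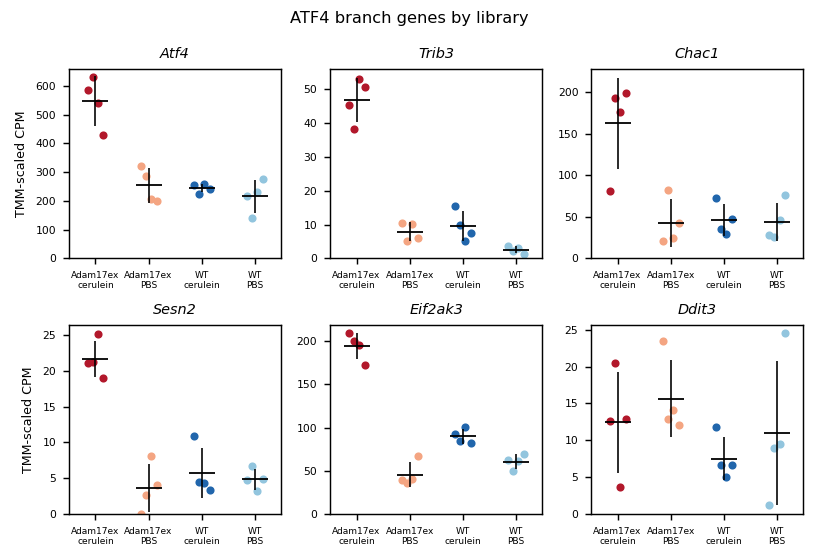
TMM-scaled CPM of Atf4, Trib3, Chac1, Sesn2, Eif2ak3 and Ddit3 in each library, with black marks for the mean and SD of the 4 mice in a group. Atf4 lies at 428 to 630.1 CPM in Adam17ex cerulein, against 139 to 322 CPM in the other groups, and the groups of Ddit3 overlap.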

How the data were processed

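Gene counts came from pancreas of 16 mice. Per the labels' protocols, TRIzol RNA (30 ng) was primed at its poly(A) tail, tagged with a UMI of 10 bp and read in sense over 101 bp. The deposited counts are unnormalized whole numbers of UMIs for 24019 genes. Tools named in the submitters' processing notes are R 4.1.2, edgeR 3.36.0 and limma 3.50.0, with GRCm38 and mm10 as builds. How reads were aligned, counted, shared between gene copies and collapsed to UMIs is not given in the sources used here. Gene coordinates are those of the deposited table.

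Depth ran from 455547 to 1476159 UMIs. Libraries of the same group differed beyond sampling noise in each of 24 pairs, so none is a copy of another. Their chi-square over degrees of freedom was 3.06 to 9.50, over genes with at least 10 UMIs. This check cannot show that each library is a separate mouse. Each was taken as a replicate from its label. The labels call the mice littermates and tie none to a litter. A number of unstated meaning in the library names follows the groups in part, and whatever it marks cannot be told apart from them.

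In R 4.3.3, edgeR 4.0.16 filtered genes (filterByExpr, minimum count 10, 8236 left), computed TMM factors and fitted 1 quasi-likelihood model with a term for each group and for sex (11 residual degrees of freedom). The interaction is the change after cerulein in Adam17ex minus that in WT. Calls need a Benjamini-Hochberg adjusted p under 0.05 over all tested genes. The scripts were tested on simulated counts. The members and lists were chosen with earlier results of these data known.

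Named with values per library were, in each group of members, the 2 with the smallest p in the interaction and in the cerulein comparison of either genotype, plus Asns, Phgdh, Psat1, Mthfd2, Slc7a5, Slc3a2, Wars and Aars. Other called members may be named, and up to 4 genes per related list and comparison, plus Atf4, Ddit3 and Trib3. Promoters are RefSeq windows on GRCm38.p6. The promoter sequence of Aars is not reported here. Alternatives were RLE and upper-quartile factors, TMM without digestive enzymes, no filter, a minimum count of 30, DESeq2 1.42.0, no sex covariate, a replicate block, females only, and leaving out each library or the 3 shallow ones. Thinning to equal depth and scaling by totals alone were chosen after seeing the data.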

Additional observations from a re-analysis of the deposited data

Results flagged for a closer look

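In 7 of 156 member and group pairs 1 library lay far from the other 3 of its group, where chance alone gives about 1 in 20. WT PBS replicate 4 was high for Slc3a2, at 257 CPM against 176.5 to 187 in the other 3, for Farsb, at 25.7 against 14.1 to 14.9, and for Slc1a4, at 22.1 against 10.4 to 11.8. WT PBS replicate 3 was high for Slc6a9, at 47.2 CPM against 38.7 to 39.2. WT cerulein replicate 4 was high for Kars, at 56.2 CPM against 43.2 to 45.1, and for Cbs, at 58.7 against 38.8 to 39.8. Adam17ex cerulein replicate 1 was high for Cbs as well, at 92.8 CPM against 68.1 to 69.3.

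The cerulein effect differed between genotypes for 9 members by the interaction test of edgeR. As log2 differences, Adam17ex minus WT, they were 2.48 for Cth, 1.56 for Slc38a2, 1.41 for Gpt2, 1.40 for Slc7a8, 1.30 for Aldh18a1, 1.20 for Psat1, 1.18 for Cbs, 1.12 for Slc7a1 and -1.14 for Wars. Cth, Slc38a2, Psat1 and Cbs kept their call when any 1 library was left out. With the 3 shallow Adam17ex PBS libraries left out, Cth, Slc38a2, Slc7a1 and Wars were called. For Wars the library that then stands for Adam17ex PBS is replicate 4, at 211 CPM against 62.3 to 103 in the other 3, and without replicate 4 Wars was not called.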

How the results depend on the processing

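Over 28 alternatives, of which a minimum count of 30 left 34 members, 5428 values of single members were recomputed. Of these 5141 stayed on their side of the threshold, 229 lost a call, 58 gained one and 0 reversed a called direction. Among the uncalled, 242 changed sign without passing. Of 8953 values of the related genes, 207 lost a call and 62 gained one. Alternatives with fewer libraries or counts have less power by construction. Whether power or another cause lay behind the changed calls was not tested. Depth limits the members with few UMIs, such as Slc1a4 with 140 in all and Slc43a1, which could not be tested.

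In Adam17ex mice females only gave 11 members higher after cerulein. In WT mice library totals alone gave 10 higher and 6 lower, and thinning gave 8 higher and 5 lower, so that higher calls outnumbered lower ones under both. Under cerulein Adam17ex was higher in 2 members with females only, 4 with thinning and 2 with totals alone. Under PBS 0 were higher with no sex covariate, females only or totals alone. There 2 were lower with DESeq2, where Slc3a2 joined Psat1, and 0 without the 3 shallow libraries. The interaction was higher in 1 member with females only (Cth), 3 without the shallow libraries, 3 with thinning and 2 with totals alone. It was lower in 0 with no sex covariate, the replicate block, females only or thinning, where Wars was not called.

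With 1 library left out, cerulein gave 17 to 21 higher and 2 to 4 lower in Adam17ex, 2 being the value without Adam17ex cerulein replicate 4, and 5 to 7 higher and 7 to 10 lower in WT. Adam17ex was higher in 3 to 9 members under cerulein and lower in 0. The count was 4 without WT cerulein replicate 1 or 3, 5 without WT cerulein replicate 4 or Adam17ex cerulein replicate 2, and 3 without Adam17ex cerulein replicate 4. Under PBS 0 to 1 were higher, being 0 without WT PBS replicate 1, 3 or 4 or Adam17ex PBS replicate 4, and 1 to 2 were lower, being 2 without Adam17ex PBS replicate 4. The interaction was higher in 4 to 9, with 4 or 5 without WT PBS replicate 3 or 4, WT cerulein replicate 3 or 4, or Adam17ex cerulein replicate 2 or 3, and lower in 0 to 1, being 0 without the 10 libraries named for Wars.

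With the replicate number as a block, 18 members were higher and 4 lower in Adam17ex, 7 higher and 9 lower in WT, 6 higher and 0 lower under cerulein, 1 higher and 1 lower under PBS, and 7 higher and 0 lower in the interaction. Correlations of the deviations of samples with the same number ran from -0.224 to 0.240 over all comparisons. In the cerulein comparison of Adam17ex mice they ran from 5.4e-05 to 0.240. These values cannot decide whether samples of a number share more than the number.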

Other observations

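Of the 17 mitochondrial synthetases, which load tRNA for the proteins encoded in mitochondria, 6 had enough counts to be tested. After cerulein 1 was higher and 1 lower in Adam17ex mice, with a median of -0.68, and 1 higher and 1 lower in WT mice, with a median of -0.28. The share called was 33.3% in each, against 30.3% of all genes in Adam17ex and 41.1% in WT mice. The lower one in Adam17ex mice, Iars2 (-0.81 ± 0.30, edgeR adjusted p = 0.0430), was lost without Adam17ex cerulein 1, 2, 3 and 4, Adam17ex PBS 1 and 2, WT cerulein 1 and 2 or WT PBS 2, 3 and 4 (adjusted p = 0.0523 to 0.286) and was not called by DESeq2. Yars2 was higher in both, by 1.32 ± 0.39, edgeR adjusted p = 0.0129 in Adam17ex and 1.23 ± 0.34, edgeR adjusted p = 0.00543 in WT mice. Its Adam17ex call was lost without the 3 shallow libraries (1.25, adjusted p = 0.199). Lars2 had 3082, 1738, 2292 and 626 CPM in Adam17ex PBS libraries, against 578, 309.8, 389 and 586 CPM in WT PBS. The first 3 of these Adam17ex PBS libraries are the shallow ones in which a ribosomal RNA gene is also high. Lars2 was called higher there (1.76 ± 0.42, edgeR adjusted p = 0.0397), and that call was lost when any of 12 of the 16 libraries was left out (adjusted p = 0.0528 to 0.173), namely Adam17ex cerulein 1, 2 and 3, Adam17ex PBS 1, 2 and 3, WT cerulein 1 and 3 or WT PBS 1, 2, 3 and 4. Without the 3 shallow libraries its change was 0.42, adjusted p = 0.873. The part of ribosomal RNA in it was not tested.

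Of the 3 scaffold proteins that hold synthetases in a complex, 1 was called after cerulein in each genotype. This is 33.3%, against 30.3% of all genes in Adam17ex and 41.1% in WT mice. Eef1e1 was higher in Adam17ex mice (1.64 ± 0.43, edgeR adjusted p = 0.00603), with 0 to 6 UMIs per library in Adam17ex PBS. Aimp2 was higher in WT mice (1.07 ± 0.29, edgeR adjusted p = 0.00446). In Adam17ex mice Aimp2 was higher at an unadjusted edgeR p under 0.05, and its interaction was not called. Eef1e1 had an interaction of 1.84 ± 0.55, edgeR adjusted p = 0.0483, lost without Adam17ex cerulein 2, 3 and 4, Adam17ex PBS 1, 2 and 4, WT cerulein 1, 2, 3 and 4 or WT PBS 1, 2, 3 and 4 (adjusted p = 0.0570 to 0.0987) and without the 3 shallow libraries (2.09, adjusted p = 0.120). Of the 6 elongation factor genes 3 were higher in Adam17ex mice after cerulein, namely Eef1a1 (0.58 ± 0.16, edgeR adjusted p = 0.00867), Eef1b2 (0.48 ± 0.16, edgeR adjusted p = 0.0233) and Eef2 (0.50 ± 0.17, edgeR adjusted p = 0.0323). All 3 calls were lost without the 3 shallow libraries (adjusted p = 0.182 for Eef1a1, 0.244 for Eef1b2 and 0.645 for Eef2). Those of Eef1b2 and Eef2 were lost without Adam17ex cerulein 2, and that of Eef2 also without Adam17ex PBS 2 or 3. The share of the 6 called was 50% in Adam17ex and 16.7% in WT mice, against 30.3% and 41.1% of all genes. In WT mice 1 of the 6 was lower, Eef2k, the kinase that inhibits elongation factor eEF2 (-0.70 ± 0.23, edgeR adjusted p = 0.0173), a call lost without WT cerulein 4 or WT PBS 3 and 4 (adjusted p = 0.0579 to 0.0792).

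Among 18 other amino acid transporters 12 were tested, of which 2 were higher and 3 lower after cerulein in Adam17ex, and 3 higher and 5 lower in WT mice. This is 41.7% in Adam17ex, against 30.3% of all genes, and 66.7% in WT mice, against 41.1%. Slc7a3, a carrier of cationic amino acids like Slc7a1, was higher in both, by 2.46 ± 0.29, edgeR adjusted p = 1.44e-06 in Adam17ex and 2.35 ± 0.25, edgeR adjusted p = 1.64e-07 in WT mice. Slc38a5, a glutamine carrier, fell in WT mice (-1.76 ± 0.21, edgeR adjusted p = 6.62e-07), and its interaction was 1.68 ± 0.28, edgeR adjusted p = 0.000978. Slc7a11, which imports cystine for glutathione, was higher in Adam17ex than in WT mice under cerulein (1.27 ± 0.27, edgeR adjusted p = 0.00329).

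Of 24 other enzymes of amino acid and one-carbon metabolism 20 were tested, and 4 were higher and 10 lower after cerulein in Adam17ex, and 4 higher and 8 lower in WT mice. This is 70.0% in Adam17ex, against 30.3% of all genes, and 60.0% in WT mice, against 41.1%. Gatm, which opens creatine synthesis from arginine and glycine, fell in both, with a change of -1.99 ± 0.22, edgeR adjusted p = 5.61e-07 in Adam17ex and -3.26 ± 0.23, edgeR adjusted p = 3.35e-10 in WT mice. Bcat2, which transaminates branched-chain amino acids, fell in both, with a change of -2.06 ± 0.32, edgeR adjusted p = 5.40e-05 in Adam17ex and -3.63 ± 0.36, edgeR adjusted p = 4.01e-08 in WT mice. Gclc, the catalytic subunit of the first enzyme of glutathione synthesis, rose by 2.53 ± 0.33, edgeR adjusted p = 5.68e-06 in Adam17ex and 3.64 ± 0.32, edgeR adjusted p = 6.39e-09 in WT mice.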
